A study of Rattus norvegicus with 6 samples.

Results

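The genes described are 10 immediate early factors of the AP-1 and EGR families, chosen by name: Fos, Fosb, Fosl1 and Fosl2 of the FOS family, Jun, Junb and Jund of the JUN family, and Egr1, Egr2 and Egr3. Of the 10 names, 9 are among the 23139 genes listed in the deposited count tables. The expression of Junb was not analysed here, only the sequence upstream of its start. Microglia were grown from cortices of Wistar rats at postnatal day 1, detached from the mixed cultures by shaking and enriched on CD11b/c beads. Cells of the LPS group received 100 ng/mL lipopolysaccharide (LPS), a bacterial cell wall component that activates microglia, together with the solvent DMSO. Cells of the LPS/siponimod group received the same LPS with siponimod, a sphingosine-1-phosphate receptor modulator, at 50 µM. All cells were kept in medium with foetal calf serum, and captured mRNA of 3 biological replicates in either condition was sequenced. Neither unstimulated cells nor cells with siponimod alone are among the 6 libraries, and all comparisons below are between LPS/siponimod and LPS. Siponimod was used at 1 dose, and the time between stimulation and RNA harvest is not stated separately for the sequenced samples in the sources used here.

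AP-1 is a dimer of basic leucine zipper proteins. FOS proteins bind DNA mainly as partners of JUN proteins, whereas JUN proteins also pair with each other. EGR proteins bind DNA through zinc fingers and recruit the corepressors NAB1 and NAB2. For many of these genes, transcripts are made within minutes of a stimulus, without new protein synthesis. Serum response factor with its ELK partners and CREB drive this induction, and most of the transcripts are degraded quickly. It does not describe all members: Jund is more constitutive, and Fosl1 and Egr3 are known targets of AP-1 and EGR proteins. In macrophages and microglia, LPS signalling through MAP kinases is a classical inducer of these genes.

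The libraries held between 38080379 and 46643859 counts each. LPS replicate 3 stood apart from the others. Over genes, the correlation of log2 CPM (counts scaled by TMM-adjusted library size) was 0.983 between LPS replicates 1 and 2, but 0.935 and 0.945 between these and LPS replicate 3. Summed markers of oligodendrocyte lineage cells and of neurons were also highest in the replicate 3 library of each condition, whereas endothelial markers were lowest there. Counts of Olig1, an oligodendrocyte lineage factor, were 1, 5 and 515 under LPS, compared with 2, 3 and 17 under LPS/siponimod, and those of Map2, a neuronal microtubule protein, 0, 3 and 162 against 1, 1 and 115. Their part in the results was not tested. Without both replicate 3 libraries, 2318 genes were called in place of 3036, and the counts of members and of genes in each list are given below without them as well.

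With LPS/siponimod, 7 of the 9 tested factors were higher than with LPS and none was lower, or 6 of 8 without Fosb, which entered the test through the LPS/siponimod group where it was high. These were Fosb, Fosl1, Fosl2, Jun, Jund, Egr2 and Egr3, with fold changes from 2.06 (Jund) to 9.72 (Fosl1). Fos and Egr1, the best known members of their families, were not called in either direction. A gene was called at an adjusted p of at most 0.05 in edgeR's quasi-likelihood test and a fold change of at least 1.5. Among all 11977 genes tested, 13.6% were called higher and 11.7% lower. No member with a negative fold change had an unadjusted p of at most 0.05, and DESeq2 likewise called 0 members lower, against 16.1% of all genes. In the same 7 genes (6 of 8 without Fosb), the CPM of the 3 LPS/siponimod libraries lay above all 3 LPS libraries. This held for 25.3% of all genes tested. The same 7 (6 of 8 without Fosb) were also higher in each pair of same-numbered libraries, against 35.4% of all genes. The median log2 fold change (FC) was 2.14 over the 9 members, with Fosb included, and -0.02 over all genes.

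**Figure D1:**
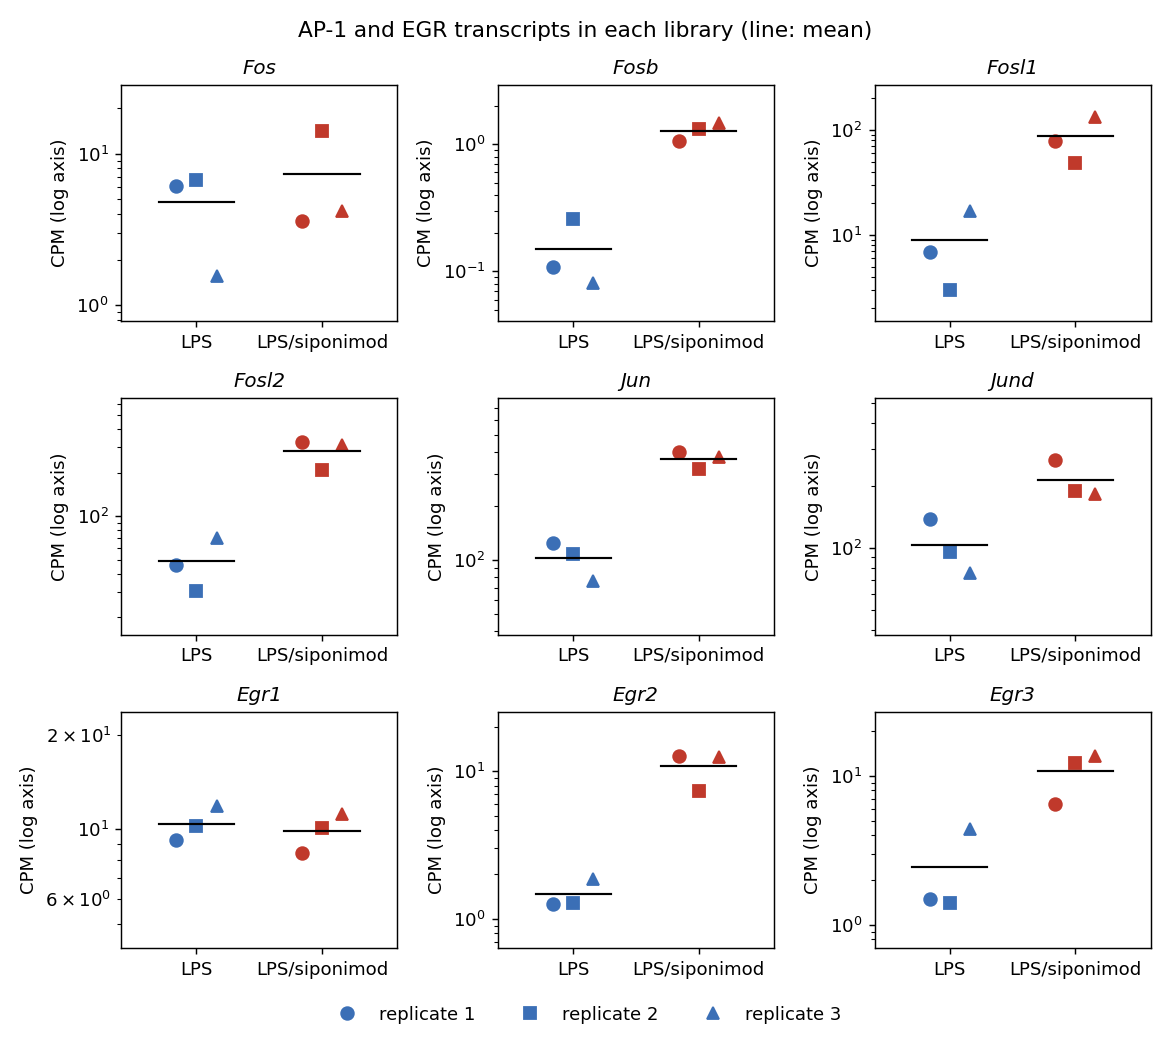
Each panel plots the CPM of 1 gene on a log axis for the 3 LPS libraries (blue) and the 3 LPS/siponimod libraries (red), with a line at the mean and symbols for the replicate number. The groups are apart in 7 panels, and they overlap for Fos and Egr1.

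Within the FOS family, Fosl2 encodes FRA-2, a FOS protein without the transactivation domain of c-FOS. Fosl2 was at 46.0, 30.1 and 70.7 CPM in LPS replicates 1 to 3 and at 328, 209 and 310 CPM in LPS/siponimod replicates 1 to 3. The lowest LPS/siponimod library was well above the highest LPS library. The means were 48.9 ± 20.4 and 282 ± 63.7 CPM (SD, n = 3 each), and the log2 FC was 2.53 (standard error, SE, 0.36, edgeR adjusted p = 0.00834).

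Fosl1 encodes FRA-1, the second FOS-related antigen, which is itself a known AP-1 target. Its counts were 253, 116 and 631 under LPS, compared with 3636, 2179 and 5485 under LPS/siponimod. In both conditions replicate 3 was highest and replicate 2 lowest, and the spread was accordingly wide (8.94 ± 7.22 against 87.0 ± 43.1 CPM). The log2 FC was 3.28, a 9.72-fold change with a 95% interval from 2.95-fold to 32.0-fold (edgeR adjusted p = 0.0217). With the replicate number as a block, the standard error of the Fosl1 log2 FC went from 0.71 to 0.24 and the log2 FC was 3.49. The call was lost without LPS replicate 1 or 2 (adjusted p = 0.0724 and 0.0612) and without LPS/siponimod replicate 1 or 3 (0.0761 and 0.0664), with 4.5e-06 to 0.0761 over the 14 alternatives.

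Fosb, whose product is an AP-1 subunit with a well-known truncated splice form, was hardly detected under LPS. LPS libraries held 4, 10 and 3 counts, compared with 49, 59 and 60 under LPS/siponimod. It passed the filter on low counts through the LPS/siponimod group, since 1 of 3 LPS libraries reached the cutoff, so that its call (fitted log2 FC 3.07, edgeR adjusted p = 0.0122) describes counts near the detection limit and supports nothing further. The count tables are per gene and do not separate its splice forms.

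For Fos, the prototype of the family, the 6 libraries did not separate. CPM values were 6.15, 6.67 and 1.56 under LPS, compared with 3.59, 14.2 and 4.17 under LPS/siponimod. LPS/siponimod replicate 2 was the highest of all 6 libraries and LPS replicate 3 the lowest. Fos was lower with LPS/siponimod in pair 1 (-0.77 on the log2 scale) and higher in pairs 2 and 3 (1.08 and 1.39). The fitted log2 FC was 0.61 with a 95% interval from -1.16 to 2.37 (edgeR adjusted p = 0.551), so that a rise as large as that of Fosl2 was outside the interval while a 4-fold rise was not. Without LPS/siponimod replicate 2 the log2 FC was -0.32 (adjusted p = 0.755; over all 14 alternatives the adjusted p lay between 0.375 and 0.835).

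**Figure D2:**
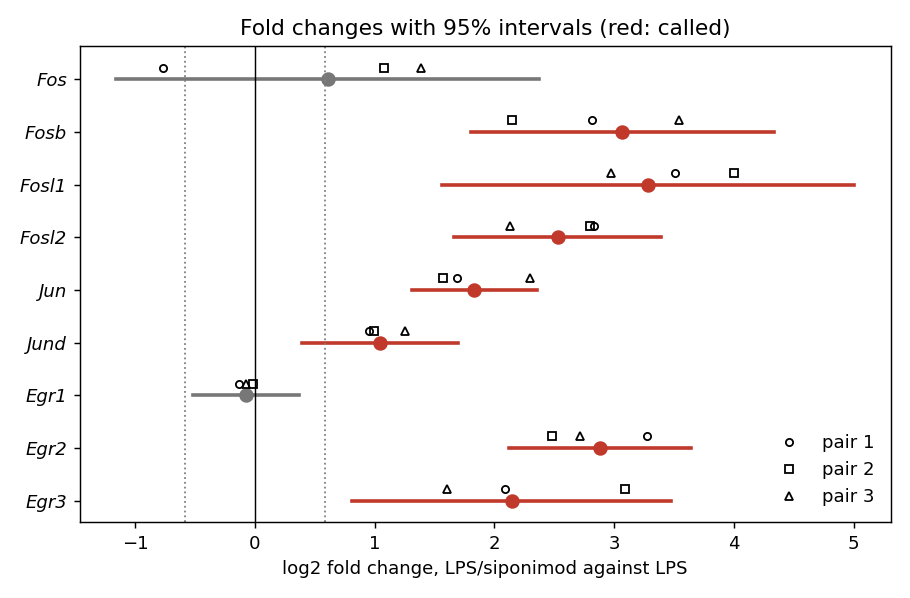
The horizontal axis gives the log2 FC of LPS/siponimod against LPS, with filled points for edgeR's fit, bars for its 95% interval, open symbols for the 3 same-numbered pairs and dotted lines at a 1.5-fold change. The 7 called genes (red) lie to the right of 0 with their whole interval, whereas the intervals of Fos (-1.16 to 2.37) and Egr1 (-0.52 to 0.37) include 0.

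The summed counts of the 4 FOS genes were 2189, 1543 and 3317 under LPS, compared with 19081, 12219 and 18411 under LPS/siponimod. Their composition within a library does not depend on normalization. Because counts are not corrected for transcript length, these shares describe changes between libraries and do not rank the genes. Fosl2 made up between 69.0% and 79.8% of FOS family counts in every library, without a difference between conditions beyond the spread (77.4 ± 2.02% against 75.1 ± 5.57%, n = 3 each, two-sided exact permutation p = 0.7). The share of Fos was 10.4%, 16.7% and 1.75% under LPS, compared with 0.875%, 5.18% and 0.929% under LPS/siponimod, lower in each pair although the groups overlapped (exact permutation p = 0.2, n = 3 each). The share of Fosl1 was higher in each pair, with means of 12.7 ± 5.84% and 22.2 ± 6.58%, and its groups overlapped as well (exact permutation p = 0.2, n = 3 each). With 3 libraries against 3, the exact permutation test cannot go below p = 0.1.

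Whether Fosl1 and Fosl2 differ from Fos in their response was examined by the ratio of their counts in the same library, a comparison chosen after the values were seen. The log2 ratio of Fosl2 to Fos was 3.53 ± 1.75 with LPS and 5.54 ± 1.44 with LPS/siponimod (SD, n = 3 each, exact permutation p = 0.2). It was higher by 3.61, 1.71 and 0.71 in pairs 1, 2 and 3. For Fosl1 to Fos the difference was 2.93 (exact permutation p = 0.2, n = 3 each). Both ratios were thus higher in 3 of 3 pairs, but overlapped between the groups. The mean differences within pairs were 2.01 (SE 0.85) for Fosl2 to Fos and 2.93 (SE 0.79) for Fosl1 to Fos. Without LPS replicate 2 the differences between group means were 1.34 and 1.95, and without LPS replicate 3 they were 3.00 and 4.24. Over the 9 ratios and shares compared, no adjusted p was under 0.257. These permutations do not use the pairing of same-numbered libraries. Within pairs, the mean difference in the Fosl1 share was 9.53 percentage points (SE 1.02, n = 3 pairs) and that in the Fos share -7.28 (SE 3.28). Single libraries moved both: the Fos share differed by -3.75 without LPS replicate 2 and by -11.2 without LPS replicate 3, and the Fosl1 share by 5.74 without LPS/siponimod replicate 3.

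Both JUN family transcripts rose as well. Jun encodes c-JUN, the transcription factor activated by JNK phosphorylation, and was at 124, 107 and 76.4 CPM under LPS, compared with 399, 320 and 377 CPM under LPS/siponimod. The groups were far apart, with similar values inside each. The means were 102 ± 23.9 and 365 ± 40.9 CPM (SD, n = 3 each) and the log2 FC 1.83 (SE 0.22, edgeR adjusted p = 0.00655). Jund, whose product is known as the more constitutive JUN protein, had 137, 95.1 and 75.7 CPM under LPS, compared with 265, 189 and 181 CPM under LPS/siponimod. Replicate 1 was the highest library of each condition. The log2 FC of Jund was 1.04 (SE 0.27, edgeR adjusted p = 0.0337), and the 3 pairs gave 0.95, 0.99 and 1.26. This call was lost without LPS replicate 2 (adjusted p = 0.129) and without LPS/siponimod replicate 1, 2 or 3 (0.127, 0.0594 and 0.0725), and its adjusted p lay between 0.00202 and 0.129 over the 14 alternatives.

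Of the summed counts of Jun and Jund, Jun held 47.4%, 53.0% and 50.2% under LPS, compared with 60.1%, 62.8% and 67.5% under LPS/siponimod. The groups did not overlap. The difference of 13.3 percentage points had an exact permutation p = 0.1 (n = 3 each), the smallest the design allows, and an adjusted p of 0.257 over the 9 comparisons. Within pairs the SE of this difference was 2.19, and the Jun share was higher in 3 of 3 pairs.

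**Figure D3:**
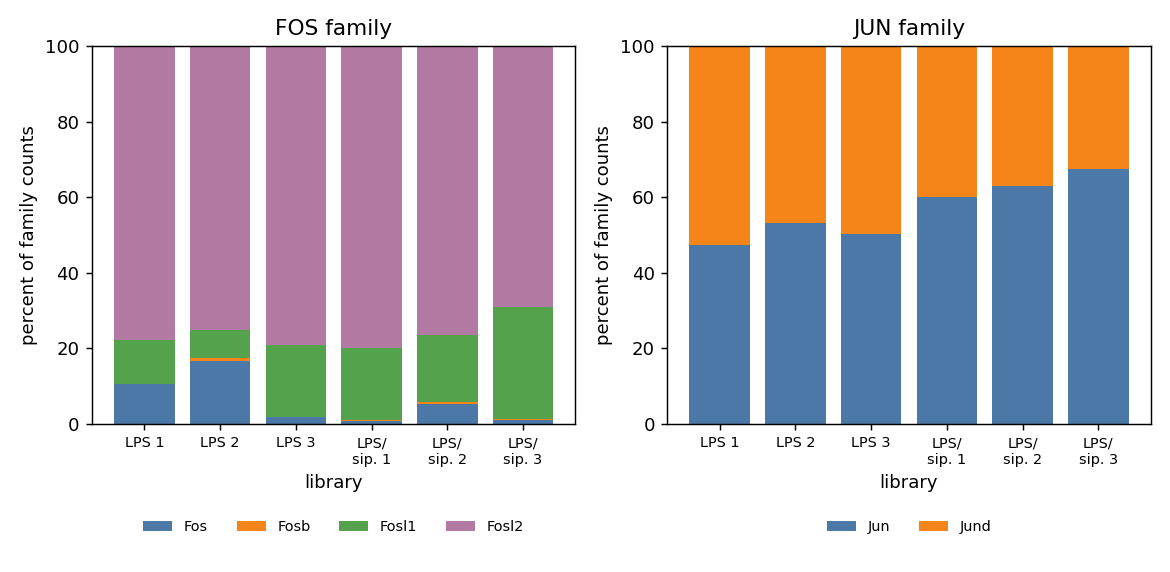
Stacked bars give the percent of FOS family counts (left) and of Jun and Jund counts (right) that each gene held in each of the 6 libraries. The Jun share lies between 47.4% and 53.0% with LPS and between 60.1% and 67.5% with LPS/siponimod, while Fosl2 holds most FOS counts in all 6 libraries.

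Of the EGR genes, Egr2 and Egr3 rose and Egr1 was not called. Egr2, known in myeloid cells as a regulator of macrophage activation and in Schwann cells of myelination, had 47, 49 and 69 counts under LPS, compared with 591, 327 and 510 under LPS/siponimod. Every LPS/siponimod library exceeded every LPS library several times over. Its CPM went from 1.47 ± 0.339 to 10.8 ± 3.04 (SD, n = 3 each), a log2 FC of 2.88 (SE 0.31, edgeR adjusted p = 0.0062). Egr3, a close relative described as a target of other EGR proteins, had CPM values of 1.48, 1.40 and 4.41 under LPS, compared with 6.48, 12.3 and 13.5 under LPS/siponimod. LPS replicate 3 was the highest of the LPS libraries, but was under all LPS/siponimod libraries. The log2 FC of Egr3 was 2.14 (SE 0.55, edgeR adjusted p = 0.0339). The call was lost without LPS replicate 1 or 2 (adjusted p = 0.0901 and 0.109) and without LPS/siponimod replicate 1, 2 or 3 (0.0713, 0.0753 and 0.1), with 0.00076 to 0.109 over the 14 alternatives.

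Egr1, the founding member of the family and a standard marker of a fresh stimulus, was at 9.23, 10.2 and 11.8 CPM under LPS, compared with 8.39, 10.1 and 11.2 CPM under LPS/siponimod. The ranges of both conditions nearly coincided, and in both replicate 1 was lowest and replicate 3 highest. The log2 FC was -0.07 with a 95% interval from -0.52 to 0.37, that is from 0.70-fold to 1.29-fold, and the adjusted p was 0.778 in the edgeR fit. A change of 1.5-fold was therefore outside the interval. In contrast to Fos, Egr1 varied little between replicates (SD 1.32 and 1.42 CPM).

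The difference between Egr2 and Egr1 was large in every pair. The log2 ratio of Egr2 to Egr1 counts was -2.85 ± 0.17 with LPS and 0.09 ± 0.53 with LPS/siponimod (SD, n = 3 each), with differences of 3.46, 2.54 and 2.82 in the pairs. For Egr3 to Egr1 the ratio was -2.31 ± 0.78 and 0.06 ± 0.38, and the pairs differed by 2.26, 3.15 and 1.69. Neither ratio overlapped between conditions (exact permutation p = 0.1 for each, the smallest possible; adjusted p = 0.257 over 9 comparisons, n = 3 each). Within pairs the mean differences were 2.94 (SE 0.27) for Egr2 to Egr1 and 2.37 (SE 0.42) for Egr3 to Egr1. These ratios were also chosen after the values were seen.

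Sequences just upstream of the starts of 7 of the 10 genes were taken from RefSeq (build GRCr8, whereas the reads were mapped to mRatBN7.2), and 250 bases before each start were searched on both strands. The motifs were the cAMP response element TGACGTCA, its core TGACG, which the full element contains on both strands, the AP-1 site TGAGTCA, the CArG box bound by serum response factor, and the EGR site GCGTGGGCG. On the opposite strand the core reads CGTCA. The core was present in 5 of the 7 windows (Fosl1, Junb, Jund, Egr1 and Egr2), against 18.2% of 33469 rat promoters. A CArG box stood in 2 windows, those of Egr1 and Egr2 (1.5% of all promoters). The full cAMP response element and the EGR site were found in 1 window each, that of Jund (1.59% and 0.478% of all promoters). The AP-1 site was in none of the 7 (4.05% of all promoters). A match is a description of these letters and not of binding. The windows of Egr2, Jund and Fosl1 are shown because these genes rose with LPS/siponimod and carry the matches, which are in capitals, 5′ to 3′ on the strand of the gene. They lie at chr20:21054442-21054691 (minus strand), chr16:18769772-18770021 (minus strand) and chr1:212183635-212183884 (plus strand).
Egr2: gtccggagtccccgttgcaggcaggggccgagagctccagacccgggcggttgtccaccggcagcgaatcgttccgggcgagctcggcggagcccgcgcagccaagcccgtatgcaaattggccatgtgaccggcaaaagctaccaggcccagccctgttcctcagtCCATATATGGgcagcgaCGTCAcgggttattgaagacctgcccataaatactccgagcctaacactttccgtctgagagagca
Jund: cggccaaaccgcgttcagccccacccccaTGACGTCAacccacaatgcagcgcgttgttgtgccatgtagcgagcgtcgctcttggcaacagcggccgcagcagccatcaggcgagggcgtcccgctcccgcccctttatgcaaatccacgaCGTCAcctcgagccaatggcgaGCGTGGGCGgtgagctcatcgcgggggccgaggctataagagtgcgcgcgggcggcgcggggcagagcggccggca
Fosl1: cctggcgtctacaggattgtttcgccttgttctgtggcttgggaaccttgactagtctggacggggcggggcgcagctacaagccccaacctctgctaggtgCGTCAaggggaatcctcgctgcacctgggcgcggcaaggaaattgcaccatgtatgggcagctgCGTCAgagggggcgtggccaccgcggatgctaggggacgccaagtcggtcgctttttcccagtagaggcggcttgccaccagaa

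In the Egr2 sequence, the CArG box CCATATATGG lies 83 to 74 bases before the start and the core 66 to 62 bases before it. The same letters of both motifs occur at the same distances in the window of Egr1, which holds a further CArG box and a further core. Egr1 and Egr2 thus share these matches. With LPS/siponimod, Egr2 was 7.37-fold higher and Egr1 was at 0.95-fold. No match to any of the 5 motifs was found in the windows of Fosb and Fosl2, which were also higher with LPS/siponimod. The part of these motifs in the changes was not tested.

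Across the 6 libraries, the tested genes with log2 CPM most like that of Fosl2 were Traf1, Gpatch3 and Sun2 (Pearson correlations of 0.999 each). For Jun they were Nop53, Runx2 and Lats2 (0.999 each), and for Egr2 they were Senp2, Zfp54 and Tmem63a (1.00, 0.999 and 0.998). With 6 points in 2 groups high values are common, and 1690, 1545 and 1791 genes had a correlation over 0.9 with Fosl2, Jun and Egr2. Between members, after the group means were removed, log2 CPM of Fosl1 and Fosl2 varied together (0.94), and so did Jun and Jund (0.84). Fos went against Fosl2 (-0.90) and Egr2 (-0.97). Similar values were found for Jund against Egr1 (-0.94), Jun against Egr3 (-0.86) and Egr1 with Egr3 (0.88). Inside the FOS family, Fos also went against Fosl1 (-0.84) and Fosb against Fosl2 (-0.83). These correlations rest on 6 libraries in same-numbered pairs, and are given as a description.

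Genes that act together with the AP-1 and EGR factors were followed in lists of well-known members. Of 11 other AP-1 and MAF basic leucine zipper factors tested, 3 were called higher and 1 lower (27.3% and 9.09%, against 13.6% and 11.7% of all genes), with a median log2 FC of -0.38. Maff, a small MAF protein, rose from 21.8 ± 17.8 to 241 ± 72.7 CPM (SD, n = 3 each, edgeR adjusted p = 0.019, log2 FC 3.47). Mafg (log2 FC 0.73) and Atf2 (0.66), a JUN partner, were called with smaller changes. Maf fell by 1.58 on the log2 scale (adjusted p = 0.0278). Atf3, the stress-induced member of this group, was not called (log2 FC 0.62, adjusted p = 0.236). Batf, Batf2 and Batf3, which pair with JUN proteins in immune cells, were at 0.525-fold, 0.501-fold and 0.283-fold of their LPS level and were not called either. Without both replicate 3 libraries 1 gene of this list was called in place of 4. With LPS/siponimod replicate 1 or 3 left out, 0 were called (783 and 1035 of all genes).

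Of the EGR corepressors, Nab1 was called higher (edgeR adjusted p = 0.033, log2 FC 0.59). Nab2, a known EGR target, had CPM means of 7.78 ± 2.06 and 14.6 ± 3.85 (SD, n = 3 each) and missed the threshold (log2 FC 0.90, adjusted p = 0.0535). Egr4 had 0, 1 and 0 counts under LPS, compared with 0, 0 and 1 under LPS/siponimod, and Wt1 had 0 counts in all 6 libraries. These 2 relatives were therefore at or under the floor of 3 counts in every library. The call of Nab1, whose fold change of 1.502 is at the threshold, was lost without LPS replicate 1 or 2, without LPS/siponimod replicate 1, 2 or 3, and with no filter, and without both replicate 3 libraries 1 gene of this list was called.

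Of 13 tested transcription factors and cofactors known to drive immediate early genes, 9 were not called, 3 were higher and 1 was lower (23.1% and 7.69%, against 13.6% and 11.7% of all genes), with a median log2 FC of 0.46. Srf, which encodes serum response factor, fell from 73.9 ± 7.59 to 38.1 ± 6.58 CPM (SD, n = 3 each, edgeR adjusted p = 0.0119, log2 FC -0.96). Its ternary complex partner Elk4 rose by 1.13 on the log2 scale (adjusted p = 0.00883) and its coactivator Mrtfb by 1.05 (0.00994), and Crem, a CREB relative, rose by 1.16 (0.0413). Without both replicate 3 libraries 4 genes of this list were called, as with all libraries. In the fits without LPS replicate 2, LPS/siponimod replicate 1 or LPS/siponimod replicate 3, 2 were called (651, 783 and 1035 of all genes). Among 21 MAP kinases and kinases downstream of them, 2 rose, Rps6ka3 (log2 FC 0.88) and Mapkapk3 (0.99), and 3 fell, Mapk14 (-1.24), which encodes p38 alpha, Rps6ka1 (-1.01) and Rps6ka4 (-0.89). These shares of 9.52% and 14.3% were near those of all genes (13.6% and 11.7%), and the median log2 FC was -0.05. A fit that blocks on replicate number called 8 genes of this list in place of 5 (and 4074 of all genes in place of 3036). Without both replicate 3 libraries 6 were called. Leaving out LPS replicate 2, LPS/siponimod replicate 1 or LPS/siponimod replicate 3 left 1 called in each fit (651, 783 and 1035 of all genes). Mapk8, which encodes a JNK kinase, had a log2 FC of -0.01 and was not called. mRNA levels do not report the activity of these kinases.

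**Figure D4:**
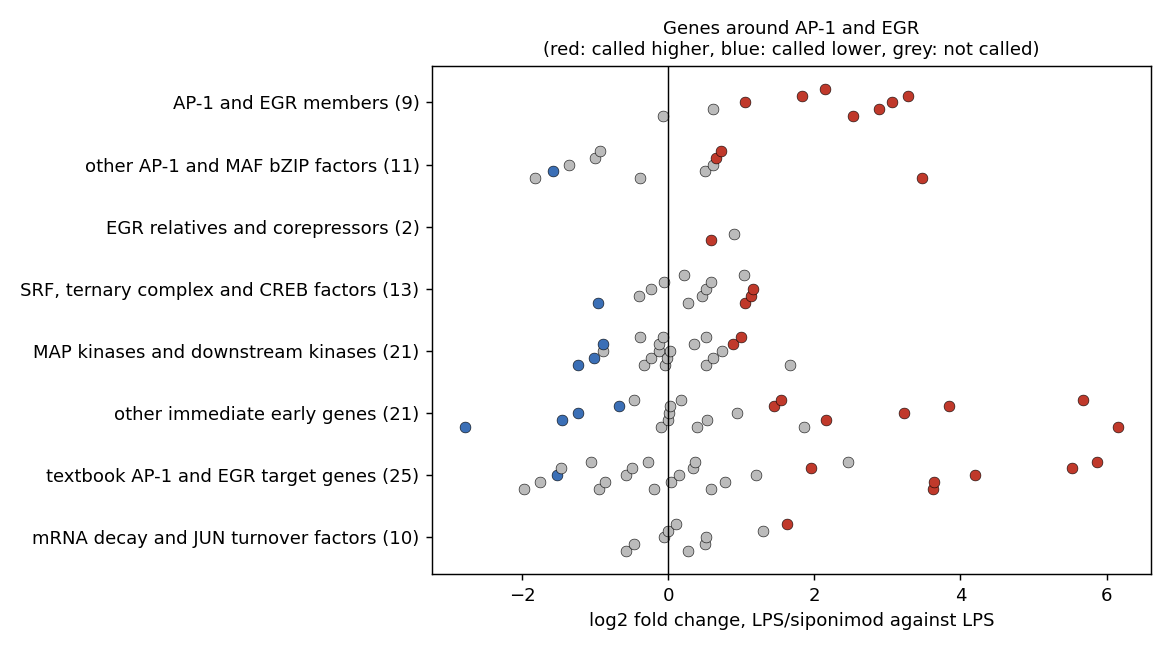
Points give the log2 FC of each tested gene, with 1 row per list and the number of genes tested in parentheses, red for genes called higher, blue for genes called lower and grey for the rest. Of the 9 members 7 are red and none is blue, while each of the lists other than the corepressors and the decay factors holds genes called in both directions. The point of Mmp10 (5.87), which was at the floor of 3 counts with LPS, depends on the prior count of the fit.

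Other immediate early genes also divided. Of 21 tested, 7 were higher and 4 lower with LPS/siponimod (33.3% and 19%, against 13.6% and 11.7% of all genes), and the median log2 FC was 0.40. The nuclear receptor gene Nr4a3 had 11, 10 and 10 counts under LPS, compared with 871, 814 and 919 under LPS/siponimod (edgeR adjusted p = 0.000527, log2 FC 6.15). Its relative Nr4a2 had a log2 FC of 3.85, and Klf4, a Krüppel-like factor, of 5.68 (adjusted p = 0.0054 and 0.00396). Trib1 (-1.46), Homer1 (-0.67) and Gadd45b (-1.23) were lower. The other genes of this list called higher were Ier3 (log2 FC 3.23), Csrnp1 (2.16), Klf6 (1.54) and Pim1 (1.45), and Klf2 (-2.78) was also lower. The remaining 10 were not called, among them Ier2 (log2 FC 0.95, edgeR adjusted p = 0.0531), Ier5 (0.01), Nr4a1 (0.40) and Myc (-0.10). In the fits without libraries between 5 and 14 genes of this list were called, in place of 11 (651 to 3713 of all genes, in place of 3036). Without both replicate 3 libraries it was 9 (2318 of all genes).

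Among 25 textbook target genes of AP-1 and EGR factors, 6 were higher and 1 lower (24% and 4%, against 13.6% and 11.7% of all genes), with a median log2 FC of 0.15. Of the 6, Mmp10 entered the test through the LPS/siponimod group, and without it 5 of 24 were higher. Without both replicate 3 libraries 10 were called in place of 7 (2318 of all genes in place of 3036). Single libraries also moved this count, to 3 without LPS replicate 2 (651 of all genes) and 4 without LPS/siponimod replicate 1 or 3 (783 and 1035). It was 11 without LPS replicate 3 (3713 of all genes). Vim, which encodes the intermediate filament vimentin, rose from 126 ± 44.8 to 1560 ± 588 CPM (SD, n = 3 each, edgeR adjusted p = 0.00655, log2 FC 3.63). Spp1, encoding osteopontin, rose from 1422 ± 369 to 17661 ± 9633 CPM (log2 FC 3.63, adjusted p = 0.00769), and the growth factor gene Vegfa had a log2 FC of 4.19 (adjusted p = 0.0112). The cell cycle gene Ccnd1 was lower (log2 FC -1.53, adjusted p = 0.0404). Mmp10 had 3, 0 and 0 counts under LPS, compared with 54, 28 and 141 under LPS/siponimod, which is at least 21.8-fold higher against the floor of 3 counts per library. Ptgs2, which encodes the inducible prostaglandin synthase COX-2, had 38.6, 29.0 and 187 CPM under LPS, compared with 3100, 2402 and 6171 CPM under LPS/siponimod (log2 FC 5.52, edgeR adjusted p = 0.0123). The inflammatory genes Il6 (log2 FC 0.15), Tnf (-0.95), Il1b (-1.05) and Ccl2 (0.37) were not called. LPS replicate 3 weighed on these values, with Il6 counts of 543, 235 and 5335 in the LPS libraries. Pairs 1, 2 and 3 gave 2.11, 2.53 and -0.77 for Il6, 0.23, 0.27 and -2.05 for Tnf, -0.42, -0.20 and -1.66 for Il1b, and 0.90, 1.36 and -0.07 for Ccl2. Of 10 factors of mRNA decay and JUN turnover, Cop1, a ubiquitin ligase for JUN, was called (log2 FC 1.62, adjusted p = 0.0112), and the list's median log2 FC was 0.19. The shares called higher and lower, 10% and 0%, were under those of all genes (13.6% and 11.7%). A fit that blocks on replicate number called 2 (4074 of all genes), as did the fit without both replicate 3 libraries (2318). Without LPS replicate 2, 0 were called (651 of all genes). Zfp36, which destabilizes AU-rich mRNAs, was not called (log2 FC -0.46).

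Leaving out single libraries moved the calls of the members, while Fosl2, Jun and Egr2 were called in each of the 14 alternatives. All 7 genes kept a positive log2 FC in every fit that tested them. With all libraries kept, RLE normalization, DESeq2, limma-voom, the likelihood ratio test, no filter and the replicate block each called 7 members higher (13.7%, 16.5%, 13.8%, 15.3%, 8.38% and 17.7% of all genes). A minimum mean of 1 CPM left 6 (14% of all genes), since Fosb was not tested. Without LPS/siponimod replicate 1, 3 members were called (4.7% of all genes were called higher in that fit). Without LPS replicate 1, LPS replicate 2 or LPS/siponimod replicate 3, 4 were called in each case (8.75%, 3.72% and 6.26% of all genes). Without LPS/siponimod replicate 2, 5 were called (11.8% of all genes). Without LPS replicate 3 it was 7 members (15.9% of all genes), and without both replicate 3 libraries 6 members (11.1% of all genes), all except Jund (log2 FC 0.97, adjusted p = 0.0697). Fosb, which entered the test through the LPS/siponimod group, is 1 of the members in most of these counts. It was not called without LPS replicate 1 or without LPS/siponimod replicate 1 (edgeR adjusted p = 0.0547 and 0.0635). Every other fit that tested Fosb called it.

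**Figure D5:**
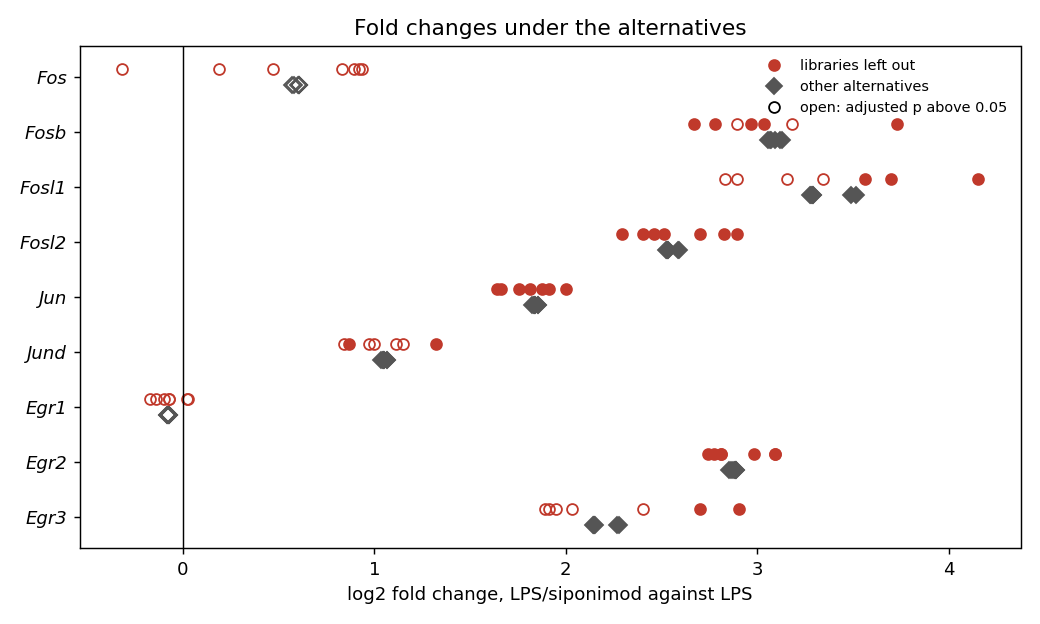
Each point is the log2 FC of 1 gene in 1 alternative fit, with circles for fits without libraries, diamonds for other tests, filters and normalizations, and open symbols for an adjusted p above 0.05. Fosl2, Jun and Egr2 have filled symbols only, Egr3 and Jund lose the call in most fits without a library, and Fos and Egr1 have points on both sides of 0.

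The cells were checked against marker genes. All 11 microglial markers were tested, and their summed level was 7600, 6541 and 4679 CPM under LPS, compared with 3872, 4562 and 2965 CPM under LPS/siponimod. Cx3cr1, Aif1 and Itgam were called lower (log2 FC -3.65, -1.88 and -0.87), and Csf1r, which had the highest summed CPM over all libraries, was not called (adjusted p = 0.106). In bulk RNA, fewer microglia and less of these transcripts per cell cannot be told apart. Oligodendrocyte lineage markers summed to 5.34, 5.37 and 36.0 CPM under LPS, compared with 11.4, 10.3 and 22.6 CPM under LPS/siponimod. Mbp, the most abundant of them over all libraries, was called higher (log2 FC 1.74). Of the 8 listed, 3 were tested. In replicate 3, Olig2 had 240 counts under LPS and 40 under LPS/siponimod, Sox10 had 96 and 15, Pdgfra 284 and 81, and Cspg4 83 and 54, whereas Mog had 1 count over all libraries. The neuronal list, led by Tubb3, summed to 1.67, 1.06 and 11.3 CPM and to 6.39, 9.28 and 17.0 CPM. Snap25 was called higher (0, 1 and 1 against 94, 153 and 81 counts) after entering the test through the LPS/siponimod group. Astrocyte markers summed to 42.5, 21.0 and 21.6 CPM and to 27.5, 26.8 and 57.6 CPM, mostly Slc1a3, and none of the 3 tested was called. In LPS replicate 3, Slc1a3 was at 15.5 CPM, and Gfap and Slc1a2 had 88 and 82 counts. The list of fibroblasts and mural cells stayed between 3.98 and 11.9 CPM in all libraries, with Dcn, its most abundant gene over all libraries, called higher (3, 0 and 4 against 456, 49 and 178 counts) after entering the test through the LPS/siponimod group. The median log2 FC of the 5 tested genes of this list was -0.65, and Col1a1 (-0.89), Col3a1 (-0.67) and Pdgfrb (-0.65) were not called. Endothelial markers, carried by Cdh5 and Pecam1, summed to 154, 201 and 81.5 CPM and to 36.0, 77.8 and 24.2 CPM without a called gene, and Kdr had 0 counts. Lymphocyte markers summed to at most 0.0672 CPM, with Cd3e and Cd3g at 0 in all libraries. The part of these cells in the changes of AP-1 and EGR genes was not tested.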

How the data were processed

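Libraries were made with the VAHTS Universal RNA-Seq kit with mRNA capture and read single-end. The authors converted the reads with bcl2fastq (version 2.20.0.422), trimmed them and mapped them to mRatBN7.2 in the CLC Genomics Workbench, and deposited total read counts per gene, without normalization, in 1 table per library. Handling of strand and of reads with several matches is not given in the sources used here, so values of overlapping genes are uncertain. In the tables, 1 row without a gene name, with 0 counts, was left out.

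The deposited counts were fitted with edgeR 4.0.16 under R 4.3.3, using its quasi-likelihood test, TMM normalization and filterByExpr (minimum count 10, minimum total 15), and a single condition term. Benjamini-Hochberg adjustment covered 11977 genes. Standard errors are the log2 FC divided by the square root of F, and values within pairs use log2 CPM with a prior count of 2. P-values measure the spread between 3 biological replicates. Floors of 3 counts allow for counting error only, because the sources used here mention no molecular identifiers, and PCR copies may be counted.

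Same-numbered libraries deviated together from their group means (correlations of 0.42, 0.545 and 0.611 over genes, against at most 0.0856 for other numbers), and the numbers were treated as pairing them, on this evidence. No 2 libraries held the same values. Alternatives were RLE normalization, DESeq2 (version 1.42.0), limma-voom (version 3.58.1), the likelihood ratio test, other filters, the replicate block, and libraries left out. Procedures were tested on simulated data. Of the genes in the lists, Mafk, Ep300, Dusp1, Rhob, Cldn5 and Ncr1 were not analysed here, and some list members are not reported here.

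Members and lists were chosen with earlier results of these data known. Named are all members, up to 3 called genes per list and direction with the smallest adjusted p, and the 3 genes most like the leading member of each family. Of the other immediate early genes, all called ones are named. The within-library ratios, the fit without both replicate 3 libraries, and Atf3, the Batf genes, Nab2, Egr4, Wt1, Mapk8, Ier2, Ier5, Nr4a1, Myc, Mmp10, Ptgs2, Il6, Tnf, Il1b, Ccl2, Zfp36, Olig1, Map2, and the called markers were chosen after their values were seen.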

Additional observations from a re-analysis of the deposited data

How the results depend on the processing

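Every alternative kept 0 members called lower. Members called higher numbered 7, between 3 and 7 with libraries left out, and 6 with a mean of at least 1 CPM, where Fosb was not tested. Fosb, which entered the test through the LPS/siponimod group, is 1 of the 7. Over all genes 3036 were called, from 651 to 3713 with libraries left out (469 to 1941 higher, 182 to 1772 lower), and 4074 with the replicate block, which changed no member's call. The median log2 FC of all genes moved by less than 0.1 under every scaling. Calls were lost with libraries left out for Fosb (log2 FC 2.67 to 3.73, without LPS replicate 1 or LPS/siponimod replicate 1), Fosl1 (2.83 to 4.15), Jund (0.84 to 1.32) and Egr3 (1.89 to 2.90). With libraries left out, Fos ranged from -0.32 (without LPS/siponimod replicate 2) to 0.93, and Egr1 from -0.17 to 0.030 (without LPS replicate 3, and 0.025 without LPS/siponimod replicate 1), neither of them called. With libraries left out, the change in the Fosb share of FOS counts (0.0481 percentage points) ranged from -0.0602 to 0.219, with -0.0141 without LPS replicate 1 and -0.0157 without LPS/siponimod replicate 2, and that of Fosl2 (-2.30) from -4.66 to 0.772.

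With libraries left out, genes called ranged from 0 to 6 for other AP-1 and MAF factors (4 with all libraries), from 0 to 1 for EGR relatives (1), from 2 to 5 for SRF and CREB factors (4), from 1 to 7 for MAP kinases (5), from 5 to 14 for other immediate early genes (11), from 3 to 11 for target genes (7) and from 0 to 2 for decay factors (1). DESeq2 and the likelihood ratio test each called 7 AP-1 and MAF factors, 2 EGR relatives and 2 decay factors. Limma-voom called 2 decay factors, and no filter left 0 EGR relatives. The replicate block called 8 MAP kinases and 2 decay factors. Beyond the number of genes and libraries tested, the cause was not tested. Fosb, with 17 counts over the LPS libraries, is the member most limited by depth.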
